A study of Mus musculus with 12 samples.

Results

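The genes of the sarcomere, the repeating contractile unit of striated muscle, were followed across 12 RNA-seq libraries of sorted mouse muscle progenitors. The set held 44 genes, chosen by symbol from a list of myosins, actins, troponins, tropomyosins, lattice proteins, calcium handling proteins and muscle creatine kinase. The set and its grouping were chosen with earlier results of these data known. Shares of it set against all genes may therefore not be independent of the data. All 44 were among the 23284 symbols of the deposited table. A filter of at least 1 FPKM (fragments scaled by transcript length and by the library's total) in at least 3 libraries was passed by 36 of them and by 12699 symbols in all. Of these 36, 7 passed only through the teratoma libraries (Myh3, Mybph, Actn2, Ldb3, Myoz2, Myom1 and Myom2). Another 3 passed only through the transplant libraries (Myh1, Tcap and Pvalb). For these genes the filter itself selects a high level in that group, so their p-values in comparisons with it are not independent of the filter. The calls are therefore also given over all 44 without the filter.

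The libraries came in 4 groups of 3, all labelled with the strain 129P2/OlaHsd and all sorted as CD31- CD45- a7-Integrin+ VCAM+ cells, which leaves out cells with the endothelial antigen CD31 and the leukocyte antigen CD45. Teratoma cells were taken from tumours of mixed tissues, grown from pluripotent stem cells, at an age of 3 weeks. Transplant cells were sorted again from the tibialis anterior, a shin muscle, 1 month after teratoma-derived progenitors had been placed there. Embryo cells were sorted from entire E14.5 embryos and adult cells from the hindlimbs of males aged 8 weeks. For the tumour and transplant hosts the labels give no age, and for the transplants no host strain and no mark of donor origin. They give no treatment. Stage and body site cannot be told apart between embryo and adult cells. The design text speaks of biological replicates without naming separate animals. The p-values therefore speak of the spread among these libraries, which may be technical.

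Between 9495 and 12000 genes reached 1 FPKM in a library, and depth is unknown because FPKM keeps no read count. Embryo replicate 2 listed 74 genes at 0 that reached 5 FPKM in both other embryo libraries, while the remaining libraries had 6 to 27 such genes. None of the 44 sarcomere genes was among these 74. Summed levels of 8 muscle progenitor markers, Pax7, Myf5, Myod1, Myog, Itga7, Vcam1, Cdh15 and Chrna1, lay from 319 to 389 FPKM in teratoma, 355 to 471 in transplant, 129.5 to 168 in embryo and 573 to 713 in adult libraries. Pax7, the defining factor of muscle stem cells, was at 25.5, 23.5 and 20.1 in teratoma, 39.8, 32.3 and 54.8 in transplant, 14.7, 14.3 and 13.1 in embryo and 8.24, 9.02 and 10.1 in adult libraries. Myog, which drives myoblasts into differentiation, was at 19.5, 30.1 and 39.6 in teratoma, 42.9, 32.6 and 46.6 in transplant, 19.4, 33.2 and 10.1 in embryo and 4.08, 4.03 and 1.97 FPKM in adult libraries.

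A sarcomere slides thick filaments of myosin along thin filaments of actin, and most of its proteins come from small gene families whose members are used at different stages and in different fibre types. Developing muscle uses embryonic and neonatal myosin heavy chains and cardiac-type actin, light chain and troponin T. Mature fibres use either slow isoforms, shared in part with the heart, or fast isoforms. Muscle stem cells carry no sarcomeres, and in textbook accounts these genes are switched on as myoblasts differentiate under the myogenic factors, MEF2 and serum response factor. The genes were grouped by this textbook use as developmental (5 genes), slow (10), fast (14) and common to both (15).

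The heavy chain genes of developing and fast muscle lie side by side on mouse chromosome 11 (mm10, GENCODE M21). Their order is Myh3 from 67078300 to 67102291, Myh2 from 67171027 to 67197517, Myh1 from 67200052 to 67224575, Myh4 from 67238029 to 67260446 and Myh8 from 67277124 to 67308634, all on the plus strand. The slow gene Myh7 lies on chromosome 14 from 54970684 to 54994626. The genes turned to most below are Actc1 (chromosome 2 from 114047282 to 114053548), Acta1 (chromosome 8 from 123891769 to 123894751), Actn3 (chromosome 19 from 4861216 to 4877909) and Des (chromosome 1 from 75360329 to 75368579).

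In the adult cells 22 of the 44 genes had their lowest mean. Adult libraries also had the fewest genes of the whole table at 1 FPKM, 9495 to 9624. The 22 are therefore not shown to be a trait of the sarcomere genes. The promoters of 4 genes with contrasting levels are shown because Actc1 exceeded Acta1 in every embryo library and fell short of it in every transplant and adult library, Myh3 stands for the developmental heavy chains, and Des was highest in the adult cells. Each is the 250 bases before the RefSeq start (GRCm38.p6, the same assembly as mm10), in lower case, with E-boxes (CANNTG, the letters bound by myogenic factors), CArG boxes (the site of serum response factor) and TATAAA in capitals on either strand:
Actc1: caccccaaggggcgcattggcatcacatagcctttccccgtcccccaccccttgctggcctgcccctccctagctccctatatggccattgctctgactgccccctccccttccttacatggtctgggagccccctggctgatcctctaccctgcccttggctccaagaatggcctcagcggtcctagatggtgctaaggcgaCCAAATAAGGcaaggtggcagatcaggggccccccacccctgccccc
Acta1: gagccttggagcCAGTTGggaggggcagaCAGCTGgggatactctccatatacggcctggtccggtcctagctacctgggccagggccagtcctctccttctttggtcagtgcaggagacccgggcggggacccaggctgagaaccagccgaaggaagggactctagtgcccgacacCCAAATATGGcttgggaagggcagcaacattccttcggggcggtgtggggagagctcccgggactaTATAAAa
Myh3: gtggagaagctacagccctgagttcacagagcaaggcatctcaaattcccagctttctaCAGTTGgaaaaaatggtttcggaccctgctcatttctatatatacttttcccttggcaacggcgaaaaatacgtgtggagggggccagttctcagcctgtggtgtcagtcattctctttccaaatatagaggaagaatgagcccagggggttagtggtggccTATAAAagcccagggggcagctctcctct
Des: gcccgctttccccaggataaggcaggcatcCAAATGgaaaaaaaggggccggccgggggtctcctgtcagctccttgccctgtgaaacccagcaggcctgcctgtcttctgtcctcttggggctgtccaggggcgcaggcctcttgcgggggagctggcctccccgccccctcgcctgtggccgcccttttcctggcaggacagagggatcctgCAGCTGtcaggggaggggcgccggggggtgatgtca

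These windows lie at chr2:114052876-114053125 on the minus strand, chr8:123894776-123895025 on the minus strand, chr11:67078050-67078299 on the plus strand and chr1:75360042-75360291 on the plus strand. RefSeq starts can differ from the GENCODE positions given above. The Actc1 window lies inside the GENCODE gene, which reaches 114053548 on the minus strand. This window held a CArG box starting 47 bases before the RefSeq start and no E-box. The Acta1 window held a CArG box 73 bases before the RefSeq start and 2 E-boxes. The table of RefSeq promoters matched 37 of the 44 genes with 44 entries. An E-box was in 36 of these 44 windows (81.8%) and in 66.2% of all 32851 windows of the same length, and the CAGCTG form, a subset of it, was in 40.9% against 13.0%. A CArG box was in 7 of the 44 (15.9%) against 1.47%, the MEF2 site in 2 (4.55%) against 0.508%, and TATAAA in 9 (20.5%) against 12.4%. The 44 windows are not independent: those of Ldb3, each counted with a CArG box, overlap, as do those of Tnni1 and of Myh7. A match is a description of letters and not a bound site.

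**Figure D1:**
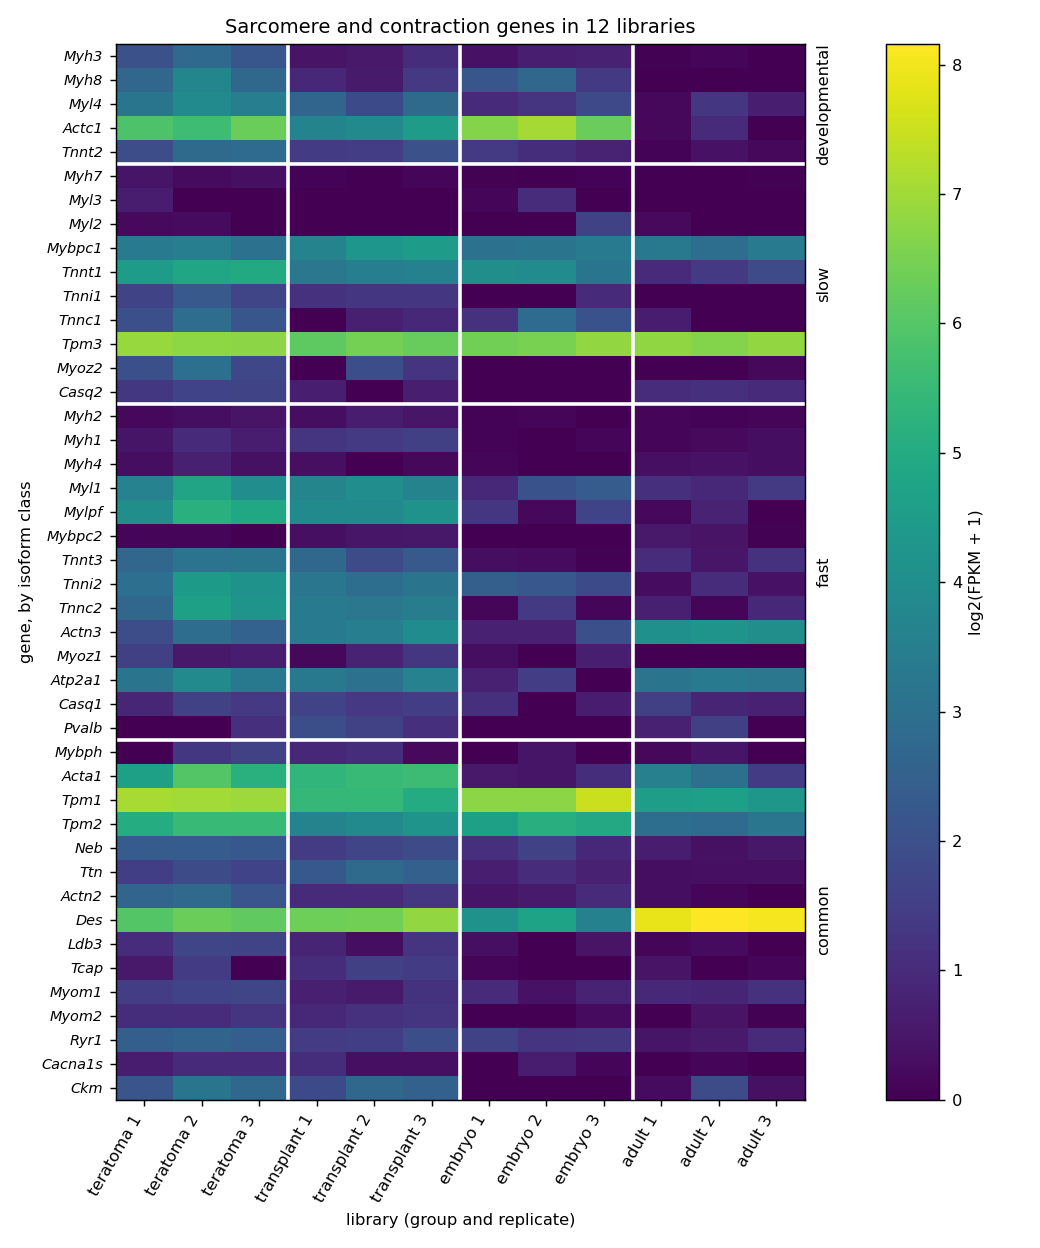
Level of each of the 44 genes (rows, by isoform class) in each of the 12 libraries (columns), coloured by log2(FPKM + 1) from 0. Actc1 and Tpm1 are bright in teratoma and embryo libraries, Des is brightest in the adult libraries, where its mean was 263 ± 23.3 FPKM, and most heavy chain rows are dark in every library.

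Sarcomere transcripts were broadest in the teratoma cells. A mean of 1 FPKM was reached by 33 of the 44 genes in teratoma cells, by 29 in transplant cells, by 17 in embryo cells and by 13 in adult cells, and a mean of 10 FPKM by 13, 10, 6 and 4 of them. The teratoma mean was the highest of the 4 for 29 genes, the transplant mean for 9, the embryo mean for 4 and the adult mean for 2, Des and Actn3. These are counts of means and are no test. Over all genes, 11609 to 12000 reached 1 FPKM in a teratoma library and 10738 to 10832 in a transplant library. The range was 10509 to 11434 in embryo and 9495 to 9624 in adult libraries. Teratoma libraries were thus broadest over all genes too, and highest means were not counted over all genes. In sorted bulk samples a smaller share of differentiating cells and less transcript per cell cannot be told apart.

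Of the thick filament genes, heavy chains stayed low. Myh8, the neonatal heavy chain, was at 5.53, 12.5 and 5.76 FPKM in the teratoma libraries, 0.912, 0.518 and 1.55 in transplant, 3.55, 5.47 and 1.63 in embryo and 0, 0 and 0.0206 in adult. Myh3, the embryonic heavy chain, was at 3.11, 5.89 and 3.51 in teratoma, 0.334, 0.487 and 1.1 in transplant, 0.311, 0.605 and 0.67 in embryo and 0.0287, 0.0966 and 0.015 in adult. Both were highest in teratoma without overlap with the other groups, and the adult libraries lay below all others. The adult fast gene Myh1 was at 1.34, 1.59 and 1.93 FPKM in transplant, above every library of the other groups, where it was at most 0.952. Myh2, Myh4 and slow Myh7 did not pass the filter, and their highest values in any library were 0.529, 0.645 and 0.368 FPKM. Reads of these genes can be shared: of the 50-base windows of the longest transcript, 26.7% of Myh1, 26.9% of Myh2, 18.9% of Myh4, 21.4% of Myh8 and 22.2% of Myh7 also occur in another striated heavy chain gene, against 4.81% of Myh3. The split between Myh1, Myh2, Myh4 and Myh8 is therefore uncertain.

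Light chains, the small subunits on the myosin neck, were represented mainly by Myl1, Mylpf and Myl4 in teratoma and transplant cells. The fast essential light chain Myl1 was at 11.2, 26.3 and 15.2 FPKM in teratoma, 12.2, 15 and 11.7 in transplant, 0.858, 3.11 and 4.24 in embryo and 1.2, 0.903 and 1.61 in adult libraries. The fast regulatory light chain Mylpf was at 15.2, 35 and 28.4 in teratoma, 13.8, 14.1 and 16.7 in transplant, 1.47, 0.122 and 2.1 in embryo and 0.128, 0.767 and 0 in adult. For both genes every teratoma and transplant library lay above every embryo and adult library. Myl4, the essential light chain of fetal muscle and atrium, was at 7.93, 13.9 and 10.2 in teratoma, 5.39, 2.57 and 6.04 in transplant, 1.01, 1.33 and 2.49 in embryo and 0.122, 1.45 and 0.592 in adult. The slow light chains Myl2 and Myl3 failed the filter, at no more than 1.96 and 1.05 FPKM, each in a single embryo library.

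Mybpc1, the slow form of the myosin-binding protein C that ties myosin to titin and actin, was present in every library at 6.78 FPKM or more. It was at 9.55, 10.2 and 7.2 FPKM in teratoma, 11.6, 18.6 and 21.4 in transplant, 7.16, 7.81 and 9.31 in embryo and 8.95, 6.78 and 9.57 in adult. Only the transplant libraries lay above those of every other group. Its fast counterpart Mybpc2 did not pass the filter and reached at most 0.470 FPKM, and the related Mybph at most 2.05.

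In the thin filament, embryo cells had the highest mean of one striated actin and the lowest of the other. Actc1, the cardiac and fetal actin, was at 98.9, 132 and 77.4 FPKM in embryo, 57.8, 48.2 and 78.6 in teratoma, 11.9, 13.7 and 21.3 in transplant and 0.132, 1.01 and 0 in adult libraries. Acta1, the actin of mature skeletal muscle, was at 0.478, 0.365 and 1.09 in embryo, 23.8, 61.5 and 35.5 in teratoma, 40.5, 45.7 and 46.9 in transplant and 10.7, 6.99 and 1.76 in adult. Embryo cells were thus highest for Actc1 with an overlap with teratoma of 1 library on each side, and lowest for Acta1 without overlap. The longest transcripts of these 2 genes shared no 50-base window with each other or with the smooth muscle actins Acta2 and Actg2.

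Troponin switches the thin filament on when calcium arrives, through a calcium-binding (C), an inhibitory (I) and a tropomyosin-binding (T) subunit. Slow Tnnt1 was at 21.1, 27.7 and 29.7 FPKM in teratoma, 8.42, 10.2 and 10.9 in transplant, 15.5, 14.3 and 7.98 in embryo and 0.97, 1.62 and 2.63 in adult. Fast Tnnt3 was at 5.45, 7.54 and 7.84 in teratoma, 5.62, 2.71 and 3.8 in transplant, 0.231, 0.176 and 0.0337 in embryo and 1.06, 0.412 and 1.25 in adult, lowest in embryo without overlap. Cardiac-type Tnnt2 was at 2.81, 6.02 and 6.25 in teratoma, 1.65, 1.78 and 3.1 in transplant, 1.61, 1.08 and 0.758 in embryo and 0.0543, 0.315 and 0.136 in adult, lowest in adult without overlap. Slow and fast troponin T genes were thus lowest in different native groups.

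For the inhibitory and calcium-binding subunits, the fast gene exceeded the slow one in each teratoma and transplant library. Fast Tnni2 was at 6.89, 20.8 and 16.9 FPKM in teratoma, 8.19, 6.66 and 7.87 in transplant, 4.49, 3.69 and 2.56 in embryo and 0.208, 1.07 and 0.332 in adult, and slow Tnni1 at 2.2, 3.8 and 2.27 in teratoma, 1.25, 1.42 and 1.43 in transplant, 0, 0 and 0.977 in embryo and 0, 0 and 0 in adult. Fast Tnnc2 was at 5.47, 24 and 17.7 in teratoma, 9.57, 8.46 and 9.84 in transplant, 0.0919, 1.6 and 0.103 in embryo and 0.652, 0.115 and 0.916 in adult. Slow Tnnc1 was at 2.93, 6.62 and 3.5 in teratoma, 0, 0.657 and 0.905 in transplant, 1.22, 6.15 and 3.16 in embryo and 0.546, 0 and 0 in adult. Tnnc1 was above Tnnc2 in each embryo library.

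Among the tropomyosins, the rods that cover the myosin sites on actin, Tpm1 and Tpm3 were abundant. These genes also make non-muscle isoforms, and values per gene do not separate these. Tpm1 was at 137, 129.9 and 123 FPKM in teratoma, 106, 106 and 182 in embryo, 42.1, 42.5 and 31.1 in transplant and 22.7, 23.3 and 18.8 in adult. Tpm2 was at 32.2, 44.1 and 45.3 in teratoma, 23.7, 34.5 and 29.5 in embryo, 11.4, 14 and 17.5 in transplant and 6.66, 6.26 and 8.22 in adult. For both, each teratoma and embryo library lay above each transplant library, and each transplant library above each adult one. Tpm3, the slow form, was at 119, 108 and 106 in teratoma, 111, 100.2 and 112 in adult, 84.9, 90.7 and 113 in embryo and 69.6, 87.6 and 75.4 in transplant, a range from 69.6 to 119 FPKM over the 12 libraries. Neb, the ruler of thin filament length, was at 4.15, 4.23 and 3.7 in teratoma, 1.72, 2.23 and 2.69 in transplant, 1.21, 2.04 and 0.872 in embryo and 0.558, 0.299 and 0.439 in adult.

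**Figure D2:**
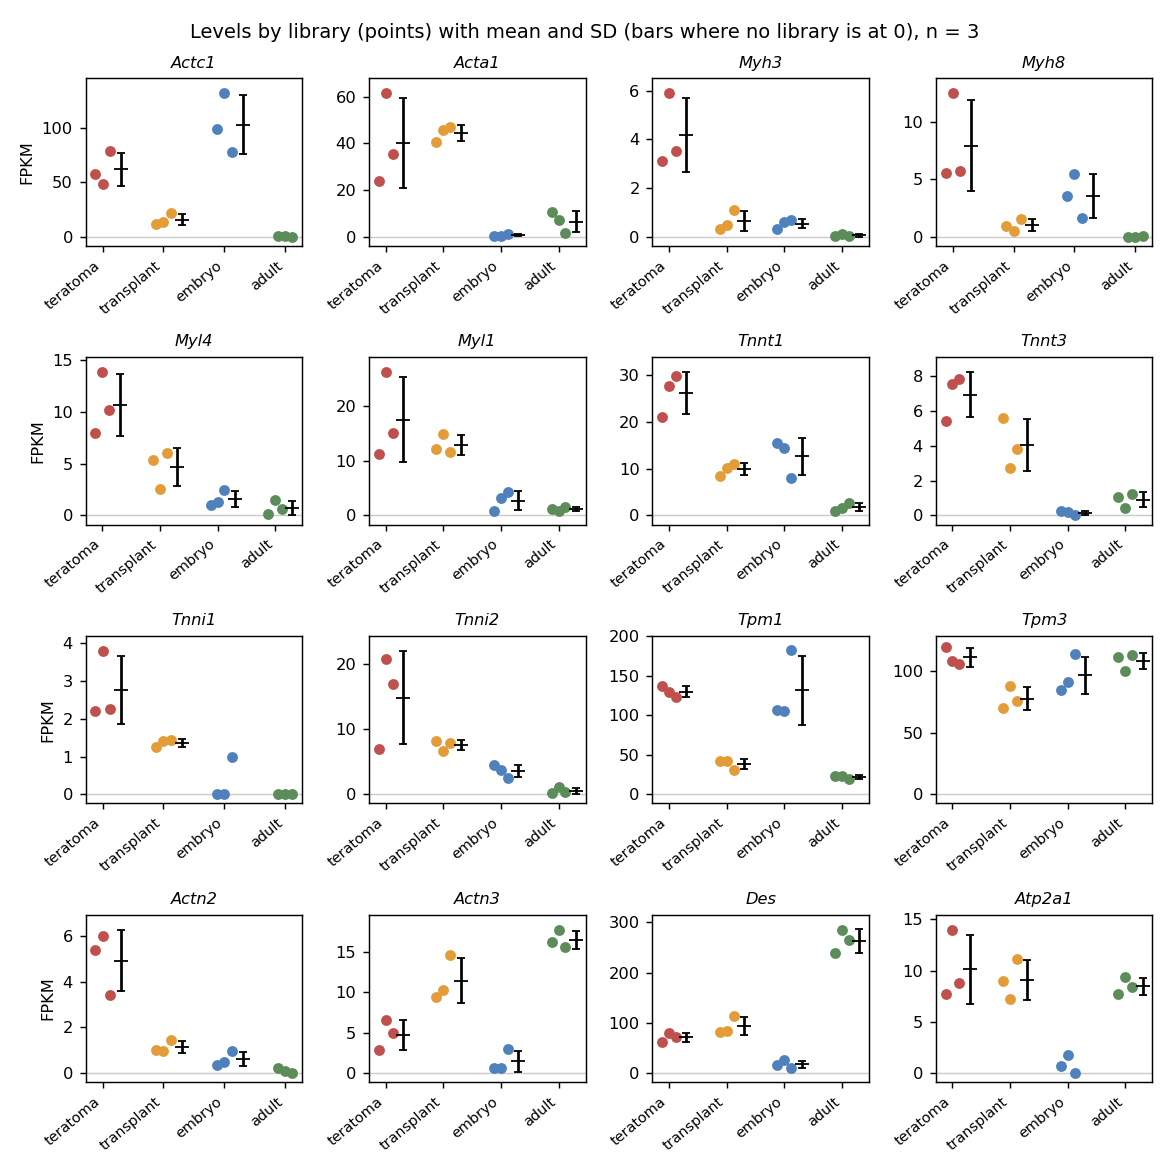
FPKM of 16 of the genes in each library (coloured points) with the group mean and SD (black bars, n = 3, left out where a library is listed at 0), on linear axes that differ between panels. Actc1 is high in embryo and teratoma and near 0 in adult, whereas Des and Actn3 are highest in adult libraries.

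Of the lattice genes, Des and Actn3 were highest in adult cells and the others in teratoma or transplant cells. Des, the intermediate filament that links Z discs and is already made by myoblasts, was at 238, 285 and 265 FPKM in adult, 81.4, 84 and 114 in transplant, 62.4, 79.8 and 71.1 in teratoma and 16.9, 25.5 and 11 in embryo. Actn3, the fast alpha-actinin that crosslinks actin at the Z disc, was at 16.1, 17.7 and 15.5 in adult, 9.38, 10.3 and 14.6 in transplant, 2.81, 6.52 and 4.92 in teratoma and 0.696, 0.665 and 2.97 in embryo. For both genes each adult library was above every library of the other groups. Actn2, the general striated alpha-actinin, was instead highest in teratoma and lowest in adult, at 5.37, 6.0 and 3.41 in teratoma, 1.01, 0.973 and 1.45 in transplant, 0.369, 0.508 and 0.96 in embryo and 0.242, 0.0795 and 0 in adult.

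Other lattice genes were low. Ttn, the giant spring titin, was at 3.71, 6.01 and 4.7 FPKM in transplant, 1.85, 2.68 and 2.12 in teratoma, 0.626, 1.05 and 0.686 in embryo and 0.232, 0.265 and 0.273 in adult, with no overlap between any 2 groups. Myoz2, a Z-disc partner of calcineurin, was at 2.99, 6.95 and 2.36 in teratoma and listed at 0 in all 3 embryo libraries. Ldb3, Tcap, Myoz1, Myom1 and Myom2, of the Z disc and M band, stayed at or below 2.29 FPKM in every library, and Myoz1 did not pass the filter.

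Of the calcium genes, Atp2a1, the fast calcium pump of the sarcoplasmic reticulum, was at 7.72, 14 and 8.74 FPKM in teratoma, 8.94, 7.23 and 11.2 in transplant, 7.72, 9.36 and 8.39 in adult and 0.667, 1.81 and 0 in embryo. Only the embryo libraries stood below the others. Ryr1, the calcium release channel, was at 4.5, 5.09 and 4.47 in teratoma, 1.72, 1.86 and 2.92 in transplant, 2.04, 1.36 and 1.44 in embryo and 0.379, 0.509 and 1.02 in adult. Casq2, the slow and cardiac calcium store protein, was at 1.49, 2.11 and 2.17 in teratoma, 0.612, 0 and 0.605 in transplant, 0, 0 and 0 in embryo and 1.06, 1.16 and 1.02 in adult. Casq1, its fast counterpart, and the calcium buffer Pvalb reached at most 2.22 and 2.88 FPKM, and the voltage sensor Cacna1s, which did not pass the filter, 1.11. Ckm, the muscle creatine kinase, was at 3.48, 8.05 and 5.7 in teratoma, 2.54, 5.66 and 4.78 in transplant and 0.19, 2.63 and 0.282 in adult, and was listed at 0 in all 3 embryo libraries.

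Shares of an isoform in the summed FPKM of its family were computed within each library where that sum was at least 5 FPKM. They need no scaling between libraries and carry no test. Actc1 took 98.6% to 99.7% of striated actin in the embryo libraries, 44% to 70.9% in teratoma and 22.6% to 31.2% in transplant. In the 2 adult libraries that reached the minimum it took 1.23% and 12.6%. The ranges did not overlap between any 2 groups. Actn2 took 51.5% ± 12.7 (SD, n = 3) of Actn2 and Actn3 in teratoma, 9.15% ± 0.573 in transplant and, by replicate, 1.48%, 0.447% and 0% in adult, also without overlap.

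The share of Tnnt1 was highest in embryo, with no adult library at the minimum for troponin T, troponin C or the heavy chains. For Tnnc1 and the developmental heavy chains only embryo replicate 2 reached the minimum. This is the library with 74 genes at 0 that reached 5 FPKM in both other embryo libraries. Its shares were the highest seen, but they do not rank the embryo group. Tnnt1 took 90.8% ± 1.27 (SD, n = 3) of troponin T in embryo, 68.9% ± 2.53 in teratoma and 61.5% ± 7.90 in transplant, the last 2 overlapping. Tnnc1 took 79.4% of troponin C in embryo replicate 2, the only embryo library with enough signal, against 24.3% ± 9.48 in teratoma and 0%, 7.21% and 8.42% in transplant. Tnni1 took 17.2% ± 6.34 of troponin I in teratoma and 15.4% ± 2.17 in transplant, which overlapped. Myh3 and Myh8 together took 88.3% ± 2.03 of the 6 heavy chains in teratoma, 98.1% in embryo replicate 2 and 51.1% in transplant replicate 3, where Myh1, Myh2 and Myh4 took 47.5%. Myl4 took 38.3% ± 3.30 of the essential light chains in teratoma and 26.5% ± 10.4 in transplant, without overlap, and 24.2% and 37% in embryo replicates 2 and 3. Mybpc1 took at least 94.9% of myosin-binding protein C genes in each library.

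**Figure D3:**
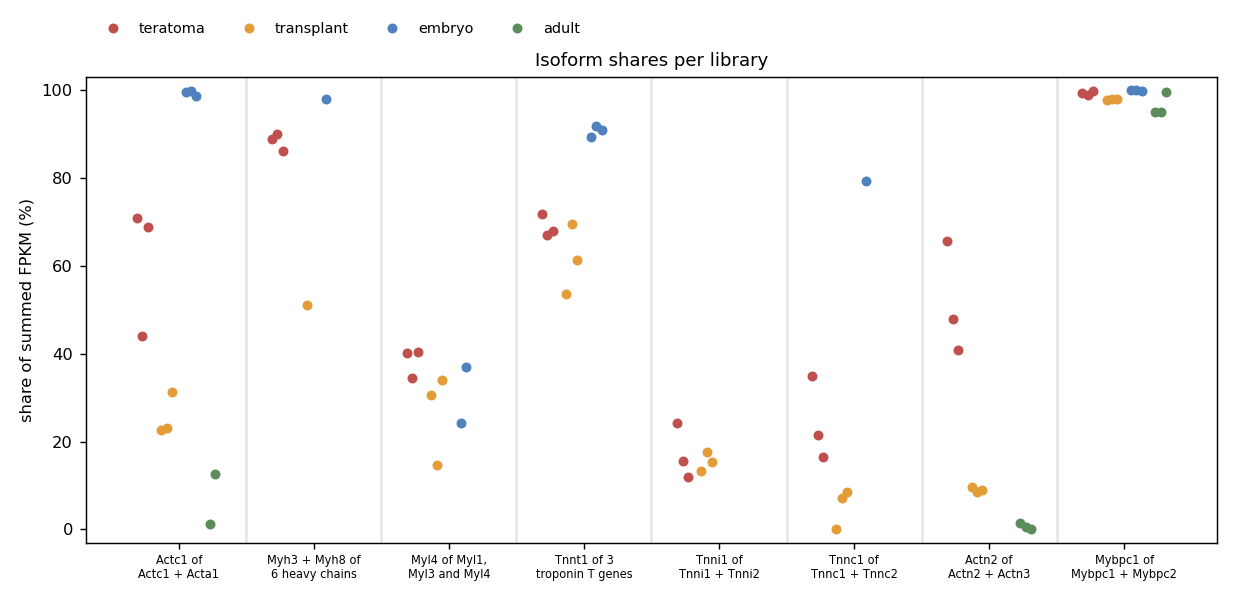
Share (%) of the named isoform in the summed FPKM of its family, for each library (points, coloured by group) whose family sum was at least 5 FPKM. The actin shares fall into 4 separate ranges, from 98.6% or more in embryo to 12.6% or less in adult.

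Tests used log2(FPKM + 1) in limma with all 12 libraries, adjusted by Benjamini-Hochberg over the 12699 tested genes, and an adjusted p below 0.05 counted as a call. Log2 changes are on that scale, which understates changes of low genes. A positive change is higher in the group named first. The 6 comparisons share libraries, so their calls are not independent of each other. Median-ratio scaling moved the median change of all tested genes from -0.42 to -0.04 in adult against embryo, from 0.50 to 0.13 in teratoma against adult, from -0.28 to -0.03 in transplant against teratoma, from 0.23 to 0.09 in transplant against adult and from -0.24 to 0.00012 in transplant against embryo. The median over all genes therefore stands beside each count. Where a call depended on a setting, the adjusted p under that setting is followed by the lowest and highest adjusted p over all alternative settings of that test. Where a gene outside the rule for named genes is given because its call changed with a setting, it was chosen after its values were seen, and no p is printed.

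Adult cells were compared with embryo cells to set the native stages against each other. Des rose in adult from 17.8 ± 7.33 to 263 ± 23.3 FPKM (log2 change 3.88, SE 0.25, adjusted p = 2.02e-07), Actn3 from 1.45 ± 1.32 to 16.4 ± 1.13 (log2 change 2.96, SE 0.35, adjusted p = 2.27e-05) and Acta1 from 0.643 ± 0.388 to 6.47 ± 4.47 (log2 change 1.98, SE 0.46, adjusted p = 0.00314). Atp2a1 (log2 change 2.5, SE 0.34, adjusted p = 7.61e-05) and Casq2 (log2 change 1.06, SE 0.24, adjusted p = 0.00294) were also called higher, from embryo libraries of which all 3 were listed at 0 for Casq2 and 1 for Atp2a1. Actc1 fell most (log2 change -6.27, SE 0.31, adjusted p = 4.28e-08), followed by Tpm1 (log2 change -2.51, SE 0.21, adjusted p = 1.63e-06), Tnnt1 (log2 change -2.31, SE 0.28, adjusted p = 2.86e-05) and Myh8 (log2 change -2.08, SE 0.37, adjusted p = 0.000554). Tpm2, Tnnc1, Tnni2 and Tnnt2 fell by 1.9, 1.8, 1.59 and 0.87 (largest adjusted p 0.0306). Tnnt3 (log2 change 0.71, SE 0.28, adjusted p = 0.051), Myh3 (log2 change -0.54, SE 0.27, adjusted p = 0.111), Myl4 (log2 change -0.63, SE 0.37, adjusted p = 0.167), Myl1 (log2 change -0.62, SE 0.38, adjusted p = 0.186), Tnni1 (log2 change -0.33, SE 0.29, adjusted p = 0.37) and Tnnc2 (log2 change 0.058, SE 0.48, adjusted p = 0.932) were not called. Of these, Tnnt3 became called without transplant replicate 1, transplant replicate 2 or adult replicate 2 (where its adjusted p = 0.0444, 0.0455 and 0.0284, all settings 0.00641 to 0.163), under both scalings, with a pseudocount of 0.1 and with only the 2 groups fitted. Myl1 became called without embryo replicate 1 (where its adjusted p = 0.0175, all settings 0.0175 to 0.933). Myh3 became called, lower in adult, with a pseudocount of 0.1 and with only the 2 groups fitted.

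In all, 5 of the 36 tested genes were called higher and 10 lower, against 15.8% and 36.9% of all tested genes. Neither share exceeded its background, and the median change of the 36 was -0.05 against -0.42 for all genes. Developmental genes had 0 higher and 3 lower of 5, slow 1 and 2 of 7, fast 2 and 1 of 10 and common genes 2 and 4 of 14. Over all 44 genes without the filter, 6 were higher and 10 lower, against 10.7% and 25.4% of 18359 genes. By class these were 0 higher and 3 lower of 5 developmental, 1 higher and 2 lower of 10 slow, 3 higher and 1 lower of 14 fast and 2 higher and 4 lower of 15 common genes. Median-ratio scaling gave 7 higher and 7 lower, with 49.9% higher among all calls in place of 30.0%, and quantile normalization gave 9 and 6. The call of Tnnt2 was lost without embryo replicate 1, embryo replicate 2, adult replicate 1 or adult replicate 3 (where its adjusted p = 0.103, 0.0505, 0.0879 and 0.0732, all settings 0.00351 to 0.288) and under both scalings, and that of Tnni2 under quantile normalization (adjusted p = 0.0739, all settings 0.000473 to 0.0739). The lower calls of Neb and Ryr1 ended under both scalings as well, and also without embryo replicate 2 or adult replicate 2 or 3 for Neb and without embryo replicate 1 or adult replicate 1 or 2 for Ryr1. The 5 higher calls held in every alternative that tested the gene. Beside the fall of Actc1 and Tnnc1, which heart muscle also uses, the 9 cardiomyocyte markers summed to between 1.42 and 3.50 FPKM in embryo and between 0.500 and 1.40 in adult libraries, and Myh6 and Myl7 were listed at 0 in all 6. Erythroid markers fell in adult as well, from between 159.5 and 1668 FPKM to at most 2.10. Of the tested markers, the calls in adult were 5 higher and 2 lower of 8 muscle progenitor, 1 lower of 2 cardiomyocyte, 2 higher and 3 lower of 7 smooth muscle and pericyte, 1 lower of 5 endothelial, 1 higher of 3 leukocyte, 2 higher and 3 lower of 5 fibroblast, 4 lower of 4 erythroid, 1 higher and 1 lower of 4 neural and glial and 3 lower of 4 epithelial. Their part in the levels of the sarcomere genes was not tested.

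Teratoma cells were next set against embryo cells. The 5 largest increases were in Acta1 and 4 fast genes. Acta1 rose from 0.643 ± 0.388 to 40.2 ± 19.3 FPKM (log2 change 4.57, SE 0.46, adjusted p = 2.98e-05), Mylpf from 1.23 ± 1.01 to 26.2 ± 10.1 (log2 change 3.66, SE 0.40, adjusted p = 5.25e-05) and Tnnc2 from 0.597 ± 0.865 to 15.7 ± 9.42 (log2 change 3.31, SE 0.48, adjusted p = 0.000405). Tnnt3, Atp2a1, Ckm and Myl1 rose by 2.78, 2.7, 2.69 and 2.36 (adjusted p at most 0.000808). Myoz2 rose by 2.25 (adjusted p = 0.00302) from libraries listed at 0. Of the developmental genes, Myl4 rose by 2.17, Myh3 by 1.73 and Tnnt2 by 1.45 (adjusted p at most 0.0045). Myoz2 and Myh3 were tested only because of their teratoma levels, so their p-values are not independent of the filter. Slow Tnni1 and Tnnt1 rose by 1.56 and 1.03 and fast Tnni2 by 1.69 (adjusted p at most 0.018).

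Actc1 and Tnnc1 were not called (log2 changes -0.72 and 0.34, adjusted p = 0.109 and 0.595), nor was Myh8 (log2 change 0.98, adjusted p = 0.0737). Of the 36 tested genes, 24 were called higher and 0 lower, where 15.5% and 10.6% of all tested genes were. By limma's unadjusted p under 0.05, 1 gene, Actc1, lay below embryo, and neither scaling alternative called any of the 36 lower. The median change was 1.17 against 0.01 for all genes. Developmental genes had 3 higher of 5, slow 4 of 7, fast 7 of 10 and common genes 10 of 14, with medians of 1.45, 1.03, 2.02 and 1.07. Without the filter, 27 of 44 were higher and 0 lower, against 11.9% and 7.00% of genes. By class these were 3 higher and 0 lower of 5 developmental, 5 higher and 0 lower of 10 slow, 9 higher and 0 lower of 14 fast and 10 higher and 0 lower of 15 common genes. Quantile normalization gave 20 higher and 0 lower. The call of Tnnt1 was lost without teratoma replicate 2, teratoma replicate 3 or embryo replicate 3 (where its adjusted p = 0.0619, 0.0634 and 0.0618, all settings 0.014 to 0.0634), and Myh8 became called without embryo replicate 2 (adjusted p = 0.0307, all settings 0.0276 to 0.268) and with library quality weights. Calls also ended for Ttn without teratoma replicate 2 or embryo replicate 1, Actn3 without teratoma replicate 2 or embryo replicate 1 or 2 and Myom1 without teratoma replicate 2 or 3 or embryo replicate 2. Quantile normalization ended those of Ttn, Ldb3, Myom1 and Myom2, and fitting only the 2 groups those of Ttn, Actn3 and Myom1.

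Markers of other cell types differed between the same groups. Epithelial markers summed to between 69.3 and 203 FPKM in teratoma against 3.63 to 14.4 in embryo, smooth muscle and pericyte markers to between 324 and 439 against 143 to 234, and cardiomyocyte markers to between 3.67 and 8.78 against 1.42 to 3.50. Of the cardiac genes, Myh6 was at 1.57, 0.731 and 0.187 FPKM, Myl7 at 0.984, 1.28 and 0, Tnni3 at 4.07, 2.14 and 1.63 and Nppa at 0 in all 3 teratoma libraries. Called higher in teratoma were 4 of 4 tested epithelial, 5 of 7 smooth muscle and pericyte, and 1 of 2 tested cardiomyocyte markers, the other being called lower. Of the 8 muscle progenitor markers 7 were called higher too. The calls of the remaining lists were 1 higher and 1 lower of 5 endothelial, 1 higher of 3 leukocyte, 1 higher and 1 lower of 5 fibroblast, 2 lower of 4 erythroid and 2 lower of 4 neural and glial. Their part in the sarcomere changes was not tested.

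Teratoma cells were also set against adult cells. Most sarcomere genes were higher in teratoma, while Des and Actn3 were lower. Actc1 rose from 0.132, 1.01 and 0 in adult to 61.6 ± 15.6 FPKM (log2 change 5.54, SE 0.31, adjusted p = 3.27e-07), Tnnt1 from 1.74 ± 0.836 to 26.2 ± 4.52 (log2 change 3.34, SE 0.28, adjusted p = 5.07e-06) and Mylpf (log2 change 4.36, SE 0.40, adjusted p = 9.18e-06) from at most 0.767 to 26.2 ± 10.1. Tnni2, Tnnc2, Myh8, Myl1 and Myl4 rose by 3.28, 3.25, 3.06, 2.98 and 2.8 (adjusted p at most 0.000232). Acta1, Tnnt2, Myh3, Tnnc1, Tnnt3 and Tnni1 rose by 2.59, 2.31, 2.27, 2.15, 2.07 and 1.88 (adjusted p at most 0.00179). Here too Myh3 was tested only because of its teratoma levels. Des (log2 change -1.87, SE 0.25, adjusted p = 0.000112) and Actn3 (log2 change -1.65, SE 0.35, adjusted p = 0.00242) fell.

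The counts were 24 higher and 2 lower of 36, against 36.4% and 8.94% of all tested genes. The median change of the 36 was 1.88 against 0.50 for all genes. Developmental genes had 5 higher of 5, slow 4 of 7, fast 5 higher and 1 lower of 10 and common genes 10 higher and 1 lower of 14. Without the filter 27 of 44 were higher and 2 lower, against 26.4% and 5.93%. By class these were 5 higher and 0 lower of 5 developmental, 5 higher and 0 lower of 10 slow, 6 higher and 1 lower of 14 fast and 11 higher and 1 lower of 15 common genes. Median-ratio scaling gave 24 higher and 3 lower, with an all-gene split of 53.1% higher among calls in place of 80.3%. No call ended when single libraries were left out, and quantile normalization ended those of Ttn, Ldb3, Myom2 and Ckm. Smooth muscle and pericyte markers summed to between 324 and 439 FPKM in teratoma against 94.7 to 121 in adult, epithelial markers to between 69.3 and 203 against at most 0.668 and fibroblast markers to between 1161 and 2157 against 601 to 862. Leukocyte markers summed to between 35.1 and 94.5 FPKM against 6.90 to 15.1, and endothelial markers to between 32.1 and 39.8 against 12.5 to 17.7. Of the tested markers, the calls in teratoma were 3 higher and 2 lower of 8 muscle progenitor, 1 higher of 2 cardiomyocyte, 6 higher of 7 smooth muscle and pericyte, 2 higher of 5 endothelial, 2 higher of 3 leukocyte, 3 higher of 5 fibroblast, 1 lower of 4 neural and glial and 4 higher of 4 epithelial, with no call among the erythroid ones. Their part was not tested.

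**Figure D4:**
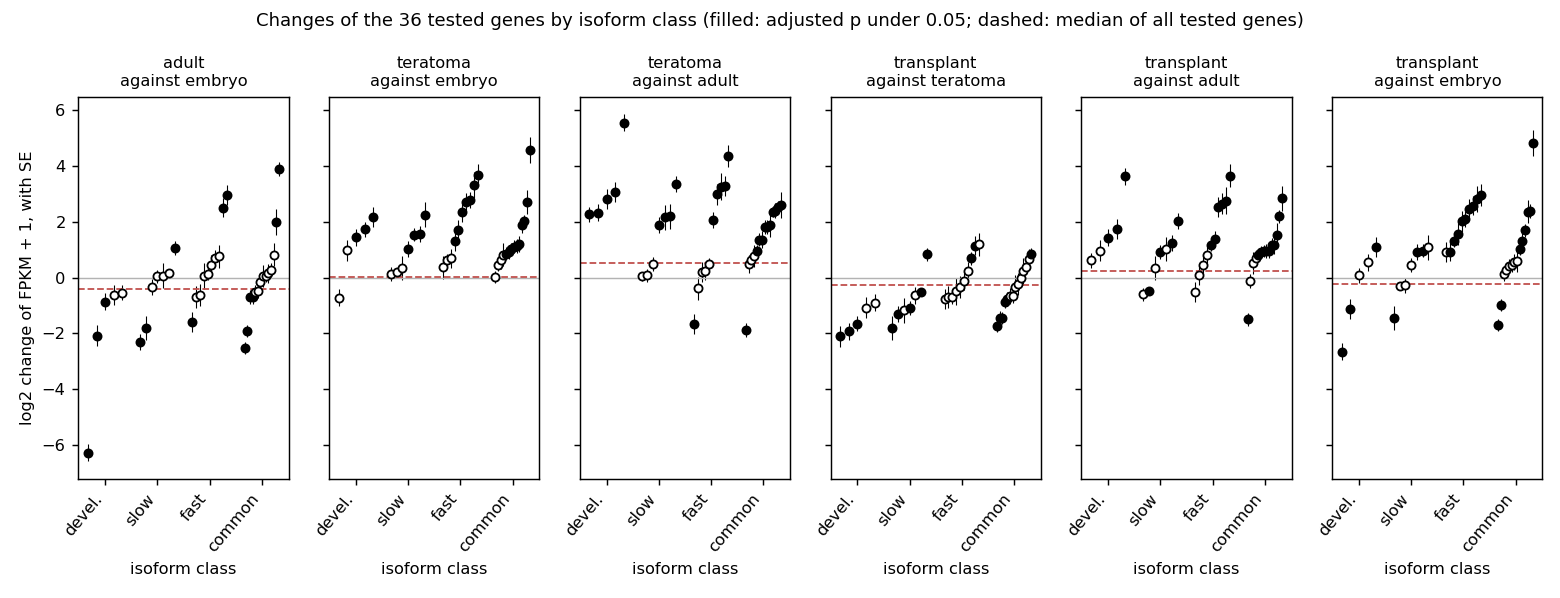
Log2 change of FPKM + 1 (y axis, with SE) of the 36 tested genes in the 6 comparisons, by isoform class, filled where called. The dashed line is the median of all tested genes. In teratoma against embryo no filled point lies below 0, where 10.6% of all tested genes were called lower. In transplant against embryo all 10 fast genes lie above 0, 9 of them filled, where 14.9% of all tested genes were called higher.

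Transplant cells were compared with teratoma cells. The transplanted cells were teratoma-derived, but the labels do not mark which of the cells sorted again were of donor origin. Several developmental and slow genes fell. Of the 10 tested fast genes 0 were called lower, where 18.5% of all tested genes were. The median change of the fast genes was -0.23 against -0.28 for all tested genes, and whether the classes differ was not tested. Myh8 fell by 2.11 on the log2 scale (SE 0.37, adjusted p = 0.00214), Actc1 from 61.6 ± 15.6 to 15.6 ± 4.99 FPKM (log2 change -1.93, SE 0.31, adjusted p = 0.00121) and Myh3 from 4.17 ± 1.5 to 0.639 ± 0.403 (log2 change -1.65, SE 0.27, adjusted p = 0.00129). Tnnc1, Tpm1, Actn2, Tpm2 and Tnnt1 fell by 1.81, 1.74, 1.45, 1.44 and 1.32 (largest adjusted p 0.0115). In this comparison Myh3 and Actn2 were tested only because of their teratoma levels, and Myh1 only because of its transplant levels. The 4 genes called higher were Actn3 (log2 change 1.14, SE 0.35, adjusted p = 0.035), Ttn (log2 change 0.84, SE 0.23, adjusted p = 0.0233), Mybpc1 (log2 change 0.84, SE 0.24, adjusted p = 0.0267) and Myh1 (log2 change 0.68, SE 0.22, adjusted p = 0.0435). Acta1 (log2 change 0.24, SE 0.46, adjusted p = 0.749), Myl1 (log2 change -0.34, SE 0.38, adjusted p = 0.562), Tnnc2 (log2 change -0.49, SE 0.48, adjusted p = 0.499), Tnnt3 (log2 change -0.68, SE 0.28, adjusted p = 0.103), Tnni2 (log2 change -0.77, SE 0.36, adjusted p = 0.147), Tnni1 (log2 change -0.64, SE 0.29, adjusted p = 0.137), Myl4 (log2 change -1.07, SE 0.37, adjusted p = 0.0543) and Tnnt2 (log2 change -0.89, SE 0.31, adjusted p = 0.0539) were not called.

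Of 36 tested genes 4 were called higher and 12 lower, against 4.18% and 18.5% of all tested genes, and the median change was -0.66 against -0.28. Developmental genes had 0 higher and 3 lower of 5, slow 1 and 4 of 7, fast 2 and 0 of 10 and common genes 1 and 5 of 14. Whether the classes differ was not tested. Without the filter 3 of 44 were higher and 13 lower, against 2.61% and 13.5%. By class these were 0 higher and 3 lower of 5 developmental, 1 higher and 5 lower of 10 slow, 1 higher and 0 lower of 14 fast and 1 higher and 5 lower of 15 common genes. Median-ratio scaling gave 4 higher and 9 lower, with 43.2% higher among all calls in place of 18.5%. Leaving out transplant replicate 1 gave 10 calls in place of 16. Of the 4 higher calls 4, and of the 12 lower calls 4, ended when at least 1 single library was left out. Actn3 was lost without teratoma replicate 1, teratoma replicate 3, transplant replicate 1, transplant replicate 2 or transplant replicate 3 (where its adjusted p = 0.139, 0.0625, 0.0596, 0.0672 and 0.116, all settings 0.00667 to 0.139). Ttn was lost without teratoma replicate 1, teratoma replicate 3, transplant replicate 2 or transplant replicate 3 (where its adjusted p = 0.0828, 0.051, 0.0859 and 0.0583, all settings 0.00659 to 0.0859) and Mybpc1 without teratoma replicate 1, teratoma replicate 3, transplant replicate 2 or transplant replicate 3 (where its adjusted p = 0.0575, 0.0831, 0.0832 and 0.101, all settings 0.00338 to 0.101). The call of Myh1 ended without teratoma replicate 1, teratoma replicate 3, transplant replicate 1, transplant replicate 2, transplant replicate 3, embryo replicate 1, adult replicate 1, adult replicate 2 or adult replicate 3 (where its adjusted p = 0.139, 0.0766, 0.0702, 0.0908, 0.129, 0.0521, 0.0601, 0.0651 and 0.06, all settings 0.00687 to 0.139). Tnnc1 was lost without transplant replicate 1 (where its adjusted p = 0.0524, all settings 0.00307 to 0.0524), and Actc1 with a pseudocount of 0.1 (adjusted p = 0.0537, all settings 0.000896 to 0.0537). Outside the named genes, lower calls ended for Tpm3 without teratoma replicate 1 or 2 or transplant replicate 1 or 3, Ryr1 without teratoma replicate 1 or 2 or transplant replicate 1 or 2 and Myom1 without any teratoma replicate, transplant replicate 1 or 2 or any adult replicate, and for these 3 under both scalings. Casq2 lost its lower call under quantile normalization. A pseudocount of 0.1 ended the calls of Actn3, Ttn, Myh1, Ryr1 and Myom1, fitting only the 2 groups those of Ttn, Mybpc1, Myh1 and Myom1, library quality weights that of Myh1 and testing without the filter that of Actn3. Of the uncalled genes, Myl4 became called without embryo replicate 3, adult replicate 1 or adult replicate 2 (where its adjusted p = 0.0491, 0.0487 and 0.0489, all settings 0.0333 to 0.209), Tnni2 without teratoma replicate 1 (where its adjusted p = 0.0216, all settings 0.0216 to 0.454) and Tnnt2 without teratoma replicate 1 or transplant replicate 3 (where its adjusted p = 0.0204 and 0.0461, all settings 0.0203 to 0.193), and Acta1 changed sign without teratoma replicate 1 (-0.08). Library quality weights called Myl4, Tnnt2 and Tnni1 lower.

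The same libraries differed in markers of other cells. Epithelial markers summed to at most 0.350 FPKM in transplant against 69.3 to 203 in teratoma, smooth muscle and pericyte markers to between 180.2 and 218 against 324 to 439, and endothelial markers to between 6.47 and 9.19 against 32.1 to 39.8. Fibroblast markers summed to between 2471 and 4059 FPKM in transplant against 1161 to 2157. Called lower in transplant were 4 of 4 epithelial, 5 of 7 smooth muscle and pericyte and 3 of 5 endothelial markers, and called higher 3 of 5 fibroblast markers. The calls of the remaining lists were 3 higher of 8 muscle progenitor, 1 lower of 2 cardiomyocyte and 1 lower of 4 erythroid. Tpm1, Tpm2 and Tpm3 are used by smooth muscle and fibroblasts as well as by fibres, and the part of such cells in their fall was not tested.

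**Figure D5:**
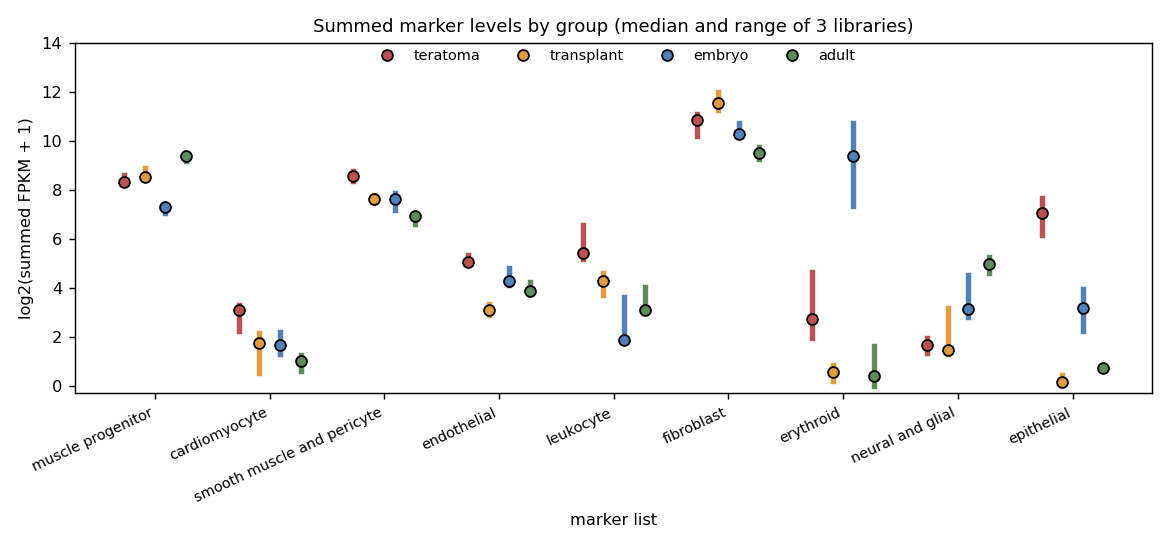
Summed level of each marker list, as log2(summed FPKM + 1), with the median (point) and range (bar) of the 3 libraries of a group. Epithelial markers are high in teratoma, erythroid markers in embryo and fibroblast markers in transplant, while cardiomyocyte markers sum to at most 8.78 FPKM in any library.

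Transplant cells were then compared with adult cells, the native occupants of the same kind of tissue. Mylpf rose from at most 0.767 FPKM in adult to 14.9 ± 1.61 (log2 change 3.65, SE 0.40, adjusted p = 3.12e-05), Actc1 to 15.6 ± 4.99 (log2 change 3.62, SE 0.31, adjusted p = 7.44e-06) and Acta1 from 6.47 ± 4.47 to 44.4 ± 3.38 (log2 change 2.83, SE 0.46, adjusted p = 0.000445). Tnnc2, Myl1, Tnni2, Ttn and Tnnt1 rose by 2.75, 2.64, 2.52, 2.19 and 2.02, and Myl4, Tnnt2, Tnnt3 and Tnni1 by 1.73, 1.42, 1.39 and 1.24 (adjusted p at most 0.00476). Des (log2 change -1.5, SE 0.25, adjusted p = 0.000498) and Tpm3 (log2 change -0.48, SE 0.15, adjusted p = 0.0204) fell. Myh3 (log2 change 0.62, SE 0.27, adjusted p = 0.0809), Myh8 (log2 change 0.95, SE 0.37, adjusted p = 0.0557) and Tnnc1 (log2 change 0.34, SE 0.43, adjusted p = 0.55) were not called. Actn3 and Atp2a1, both fast, were among the genes without a call, at means of 11.4 ± 2.76 and 9.11 ± 1.97 FPKM in transplant and 16.4 ± 1.13 and 8.49 ± 0.823 in adult.

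The counts here were 22 higher and 2 lower of 36, against 27.3% and 16.9% of all tested genes, with a median of 0.95 against 0.23. Developmental genes had 3 higher of 5, slow 3 higher and 1 lower of 7, fast 6 higher of 10 and common genes 10 higher and 1 lower of 14. Over all 44 without the filter, 23 were higher and 3 lower, against 17.3% and 11.1%. By class these were 3 higher and 0 lower of 5 developmental, 3 higher and 2 lower of 10 slow, 7 higher and 0 lower of 14 fast and 10 higher and 1 lower of 15 common genes. Quantile normalization gave 18 higher and 2 lower, with 48.1% higher among all calls in place of 61.7%. The call of Tpm3 was lost without transplant replicate 1, transplant replicate 3, adult replicate 1 or adult replicate 3 (where its adjusted p = 0.0801, 0.0558, 0.0604 and 0.0629, all settings 0.000467 to 0.156) and under quantile normalization, and Myh8 became called without teratoma replicate 2, embryo replicate 2 or embryo replicate 3 (where its adjusted p = 0.0384, 0.0358 and 0.033, all settings 0.000848 to 0.174), with a pseudocount of 0.1, with only the 2 groups fitted and with library quality weights. Myh3 became called higher with a pseudocount of 0.1 and with only the 2 groups fitted. Higher calls ended for Tcap without adult replicate 2 and Ckm without adult replicate 1, and under quantile normalization for Tcap, Ckm, Actn2 and Ryr1. Fibroblast markers summed to between 2471 and 4059 FPKM in transplant against 601 to 862 in adult, and smooth muscle and pericyte markers to between 180.2 and 218 against 94.7 to 121. Of the tested markers, the calls in transplant were 4 higher and 2 lower of 8 muscle progenitor, 4 higher and 2 lower of 7 smooth muscle and pericyte, 1 lower of 5 endothelial, 1 higher of 3 leukocyte, 4 higher of 5 fibroblast and 1 lower of 4 neural and glial, with none in the other lists. The 2 lower smooth muscle and pericyte markers were Myh11 and Rgs5. Their part was not tested.

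Transplant cells were last compared with embryo cells. Of the 10 tested fast genes 9 were called higher, against 14.9% of all tested genes. Among the 9 were Myh1 and Pvalb, which passed the filter only through the transplant libraries. Over all 14 fast genes without the filter 10 were called higher, against 9.80% of all genes. Some developmental and slow genes were lower. Acta1 rose from 0.643 ± 0.388 to 44.4 ± 3.38 FPKM (log2 change 4.81, SE 0.46, adjusted p = 7.37e-06), Mylpf from 1.23 ± 1.01 to 14.9 ± 1.61 (log2 change 2.95, SE 0.40, adjusted p = 0.000103) and Tnnc2 from 0.597 ± 0.865 to 9.29 ± 0.733 (log2 change 2.81, SE 0.48, adjusted p = 0.000538). Atp2a1, Actn3, Des, Ckm, Tnnt3 and Myl1 rose by 2.58, 2.45, 2.38, 2.36, 2.1 and 2.02 (adjusted p at most 0.00109), and Myl4 and Tnni1 by 1.1 and 0.92 (adjusted p at most 0.0299). Actc1 fell from 103 ± 27.2 to 15.6 ± 4.99 (log2 change -2.65, SE 0.31, adjusted p = 3.5e-05), and Tpm1, Tnnc1, Myh8 and Tpm2 fell by 1.71, 1.46, 1.13 and 0.98 (adjusted p at most 0.0286). Tnni2 (log2 change 0.92, SE 0.36, adjusted p = 0.0563), Tnnt2 (log2 change 0.55, SE 0.31, adjusted p = 0.167), Tnnt1 (log2 change -0.28, SE 0.28, adjusted p = 0.447) and Myh3 (log2 change 0.081, SE 0.27, adjusted p = 0.837) were not called.

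Of the 36 tested genes 18 were higher and 5 lower, against 14.9% and 27.6% of all tested genes, with a median change of 0.92 against -0.24. Developmental genes had 1 higher and 2 lower of 5, slow 2 and 1 of 7, fast 9 and 0 of 10 and common genes 6 and 2 of 14. Over all 44 without the filter, 18 were higher and 4 lower, against 9.80% and 18.6%. By class these were 0 higher and 1 lower of 5 developmental, 2 higher and 1 lower of 10 slow, 10 higher and 0 lower of 14 fast and 6 higher and 2 lower of 15 common genes, and without the filter the calls of Myh8, Myl4 and Casq1 ended. Median-ratio scaling gave 19 higher and 4 lower, with 51.3% higher among all calls in place of 35.0%. Leaving out single libraries ended 5 of the 23 calls, all 5 of them without embryo replicate 2. Myh8 was lost without transplant replicate 1, transplant replicate 2, embryo replicate 1 or embryo replicate 2 (where its adjusted p = 0.0692, 0.1, 0.0693 and 0.102, all settings 0.00824 to 0.102), Myl4 without transplant replicate 1, transplant replicate 3, embryo replicate 1 or embryo replicate 2 (where its adjusted p = 0.0948, 0.107, 0.095 and 0.0673, all settings 0.0137 to 0.107), Tnni1 without transplant replicate 1, transplant replicate 2, transplant replicate 3, embryo replicate 1 or embryo replicate 2 (where its adjusted p = 0.0508, 0.0611, 0.0619, 0.0852 and 0.078, all settings 0.00285 to 0.0852) and Tnnc1 without transplant replicate 1 or embryo replicate 2 (where its adjusted p = 0.0716 and 0.0618, all settings 0.00395 to 0.0716). Casq1 was lost without teratoma replicate 3, any transplant replicate, embryo replicate 2 or 3 or adult replicate 2. Tnni2 became called without teratoma replicate 1 or teratoma replicate 2 (where its adjusted p = 0.016 and 0.0477, all settings 0.016 to 0.163), and Myh3 changed sign without transplant replicate 3 (-0.11) or embryo replicate 1 (-0.03). Both scalings ended the call of Myh8, made Tnni2 called higher in transplant and turned the sign of the uncalled Tnnt1, and quantile normalization ended the call of Tnnc1. Fitting only the 2 groups ended the calls of Myh8, Myl4, Tnni1, Tnnc1 and Casq1 and made Tnni2 called. A pseudocount of 0.1 ended those of Myl4 and Casq1, and library quality weights those of Tnnc1 and Casq1. Of the tested markers, the calls in transplant were 8 higher of 8 muscle progenitor, 1 lower of 2 cardiomyocyte, 1 lower of 7 smooth muscle and pericyte, 3 lower of 5 endothelial, 1 higher of 3 leukocyte, 4 higher of 5 fibroblast, 4 lower of 4 erythroid, 2 lower of 4 neural and glial and 3 lower of 4 epithelial. Their part was not tested.

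Other genes of contraction and the sarcomere, from a list of 73 symbols of which all were matched and 44 tested, gave the surroundings of these calls. In adult against embryo 13 (29.5%) were higher and 7 (15.9%) lower, against 15.8% and 36.9% of all tested genes. In teratoma against embryo 27 (61.4%) were higher and 1 (2.27%) lower, against 15.5% and 10.6%. In teratoma against adult 17 (38.6%) were higher and 6 (13.6%) lower, against 36.4% and 8.94%, so the higher share was near its background. In transplant against teratoma 5 (11.4%) were higher and 5 (11.4%) lower, against 4.18% and 18.5%. In transplant against adult 19 (43.2%) were higher and 6 (13.6%) lower, against 27.3% and 16.9%. In transplant against embryo 25 (56.8%) were higher and 3 (6.82%) lower, against 14.9% and 27.6%. Flnc, the Z-disc crosslinker filamin C, was at 815, 656 and 798 FPKM in adult, 118, 183 and 236 in transplant, 205, 193 and 163 in teratoma and 52.3, 53.2 and 50.1 in embryo. Cryab, a small heat shock protein that guards desmin and titin, was at 129, 141 and 118 in adult, 55.4, 63 and 72.4 in transplant, 27.8, 35.6 and 38 in teratoma and 11.5, 10.9 and 7.16 in embryo. Both were called higher in adult than in each other group, as Des was. Cacng1, a subunit of the muscle calcium channel, was at 27.7, 21.7 and 26.7 in transplant, 4.74, 12.3 and 23.2 in teratoma, 0.417, 0.559 and 1.36 in adult and 0.309, 0 and 0.163 in embryo. Cox6a2, the striated muscle form of a respiratory chain subunit, was at 4.8, 7.16 and 6.94 in teratoma and 2.73, 6.59 and 3.36 in transplant, and was listed at 0 in all 6 native libraries. Leaving out teratoma replicate 2 gave 18 calls in teratoma against embryo in place of 28, and the 10 calls of transplant against teratoma ran from 4 to 12 when single libraries were left out, with 4 to 6 without teratoma replicate 1 or 2, any transplant replicate or adult replicate 3.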

How the data were processed

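Sorted progenitors were digested with collagenase II and dispase, and total RNA was made into stranded libraries with the SMARTer Pico kit, per the labels. FPKM values per gene were deposited by the authors. Tools listed without a role in the submitters' processing notes are Partek, Cufflinks 2.2.1.0, TopHat 0.7 and CASAVA 1.8.2, with the build mm10. Annotation, strand setting and read counts were not given in the sources, so reads of overlapping genes cannot be told apart, and no whole reads could be recovered from low values. All 12 columns of values were mapped to a sample by name. Of the 23746 entries, 462 repeats of 240 symbols were summed, none of them for a sarcomere gene.

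Tests used limma 3.58.1 in R 4.3.3 on log2(FPKM + 1), with a trend and 1 model over the 4 groups (8 residual degrees of freedom), after the filter. P-values were Benjamini-Hochberg adjusted within each comparison over all tested genes. The method was tested on simulated data with normal noise, for teratoma against embryo only, with changes added only to genes above a set level. Detection of changes in genes below that level was not checked. In each comparison the text gives at most the 8 higher and 8 lower called genes with the largest change plus Myh3, Myh8, Myl1, Myl4, Acta1, Actc1, Tnni1, Tnni2, Tnnt1, Tnnt2, Tnnt3, Tnnc1 and Tnnc2. Every library's value is given for sarcomere genes with a group mean of at least 10 FPKM. Of the other contraction genes at most 4 higher and 4 lower per comparison could be named, largest change first. The members, their classes and all lists were chosen with earlier results of these data known. The 21 alternatives changed scaling, pseudocount, filter, weights, zeros, the groups fitted, the replicate block and each library in turn. Promoters are RefSeq windows, and gene positions are from GENCODE M21.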

Additional observations from a re-analysis of the deposited data

How the results depend on the processing

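Depth is unknown, so the precision of low values cannot be given. Of 109 tests of named sarcomere genes, 85 were called. Of these, 71 kept their call under every alternative that tested the gene, 14 lost it under at least 1, and none changed sign. The filter at a mean of 5 FPKM tested only 14 of the 36 sarcomere genes, so the others met 20 of the 21 alternatives. Of the 24 not called, 11 became called and 6 changed sign under at least 1 alternative.

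A filter at a mean of 5 FPKM tested 7068 genes in all, among them 14 sarcomere and 12 other contraction genes. Its counts of calls are therefore out of smaller totals than the 12699, 36 and 44 of the main filter. It left 4370, 2084 and 3720 calls over all genes in adult against embryo, teratoma against embryo and teratoma against adult. Of the sarcomere genes it left 9, 9, 11, 7, 12 and 11 calls, and of the other contraction genes 10, 10, 8, 3, 8 and 10, in the order adult against embryo, teratoma against embryo, teratoma against adult, transplant against teratoma, transplant against adult and transplant against embryo. Quantile normalization gave 18 calls of other contraction genes in teratoma against embryo. In transplant against teratoma a pseudocount of 0.1 gave 10 calls of sarcomere genes and 5 of other contraction genes, and fitting only those 2 groups gave 6 of the latter. The cause was not tested for the scaling, the pseudocount and the fit of 2 groups.

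Leaving out single libraries gave 18 to 28 calls of other contraction genes in teratoma against embryo. In transplant against teratoma it gave 1706 to 3300 calls over all genes, 10 to 17 of sarcomere genes and 4 to 12 of other contraction genes. The lowest totals came without teratoma replicate 1 (1706) and without transplant replicate 1 (1805). Signs of uncalled genes turned in adult against embryo for Myl1 (0.047 under quantile normalization) and for Tnnc2, whose log2 change ran from -0.15 to 0.47 when single libraries were left out. They also turned for Tnnc1 in teratoma against embryo (-0.088 to 0.76, below 0 without embryo replicate 1), Acta1 in transplant against teratoma (-0.076 to 0.59, below 0 without teratoma replicate 1) and Myh3 in transplant against embryo (-0.11 to 0.22). Tnnt1 in transplant against embryo turned to 0.011 under median-ratio scaling and 0.0024 under quantile normalization.

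Libraries with the same replicate number showed no joint deviation: of 18 same-numbered pairs the correlations ran from -0.095 to 0.096, and none was over 0.1. A differently numbered pair, teratoma replicate 1 and transplant replicate 3, reached 0.143. With 3 libraries per group this check cannot tell whether same-numbered libraries share an animal or a preparation. With the replicate block, sarcomere calls were 15, 24, 26, 14, 24 and 22 in the order above, and 2466 genes in place of 2874 were called in transplant against teratoma. Of the named calls the block lost Myh1 in that comparison (log2 change 0.68, adjusted p = 0.063). Outside the named genes it lost Myom1 in that comparison and Casq1 in transplant against embryo.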

Other observations

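Other contraction genes that changed between teratoma and transplant cells included both membrane and filament proteins. Jph2, a junctophilin that holds the sarcoplasmic reticulum to the surface membrane, was at 1.63, 2.83 and 1.86 FPKM in teratoma and 4.74, 7.84 and 4.6 in transplant (log2 change 1.1, SE 0.29, adjusted p = 0.019). Its paralogue Jph1 moved the opposite way, from 4.66, 4.64 and 4.68 to 1.03, 1.5 and 2.86 (log2 change -1.07, SE 0.30, adjusted p = 0.0253). Neither pair of groups overlapped. Xirp2, an actin-binding repeat protein, was at 0.0538, 0.261 and 0.153 and 1.15, 1.66 and 1.24 (log2 change 1.02, SE 0.20, adjusted p = 0.0041), and Lmod2, which nucleates actin filaments, at 0.708, 2.37 and 1.44 and 3.31, 4.05 and 2.91 (log2 change 0.86, SE 0.28, adjusted p = 0.0455). Sarcolipin (Sln), the inhibitor of the calcium pump, was at 3.48, 5.16 and 2.62 in teratoma and 0, 0 and 1.49 in transplant (log2 change -1.77, SE 0.47, adjusted p = 0.019). Cardiac troponin I (Tnni3) fell (log2 change -1.15, SE 0.32, adjusted p = 0.0234), as did the muscle phosphoglycerate mutase Pgam2 (log2 change -1.59, SE 0.50, adjusted p = 0.038). In this comparison the 10 calls of these other genes fell to between 4 and 6 without teratoma replicate 1 or 2, any transplant replicate or adult replicate 3.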
